A study of Mus musculus with 8 samples.

Results

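The genes described here encode the machinery that docks, primes, fuses and retrieves synaptic vesicles in the presynaptic terminal. They were chosen by gene symbol as a list of 53 genes in 9 role groups, with earlier results of these data known. All 53 had a row among the 14765 genes of the count table. Poly(A) RNA was sequenced from PrL, read here as the prelimbic cortex of the medial frontal wall, of C57 mice that carry no other stated allele. There were 4 libraries from mice labelled SNI, the usual short form of spared nerve injury, in which part of the sciatic nerve is cut and pain lasts, and 4 from mice labelled Sham. The labels state neither age, nor days since the operation, nor whether each library stands for a separate mouse, so a p-value here covers the spread among libraries, some of which may be technical. The question is which release genes of this cortical area differ in RNA level after the injury.

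In a terminal, vesicles fuse when SNARE proteins on the vesicle and on the plasma membrane zip together. Munc13 proteins (Unc13 genes) prime that assembly, complexins hold it ready, and synaptotagmins trigger it when calcium enters at the active zone, a scaffold of RIM, ELKS, liprin, Bassoon and Piccolo proteins. NSF and SNAP proteins then take spent SNARE complexes apart, while dynamin, amphiphysin, synaptojanin and AP180 retrieve the membrane. Messenger RNA lies mostly in the cell body, so RNA of a cortical area mostly reports the release genes of neurons whose cell bodies lie there, and little of the axons that reach it from elsewhere.

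The libraries held between 14735602 and 19602487 counts. Spearman correlations over genes were 0.989 to 0.993 within SNI, 0.991 to 0.994 within sham and 0.982 to 0.992 between the groups. Levels are given in CPM, read counts scaled to a common library size by TMM, which centres on the bulk of genes. Excitatory cortical neuron markers were abundant in every library: the 14 measured of 15 listed summed to 4794 to 6340 CPM in SNI and 6312 to 7221 CPM in sham. Slc17a7, the vesicular glutamate transporter of cortical excitatory neurons, had 1487 ± 299 CPM in SNI and 1843 ± 94.4 CPM in sham (SD, n = 4 libraries each). Its groups overlapped, and the edgeR test described below gave an adjusted p of 0.148. Markers of neighbouring striatum were also present, at 389 to 929 CPM in SNI and 259 to 517 CPM in sham summed over 12 genes.

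Of the 53 members 6 fell and 0 rose, by edgeR's quasi-likelihood test with Benjamini-Hochberg adjustment over all 13911 genes tested (adjusted p under 0.05), and all 53 passed the low-count filter. The 6 were Unc13a, Stx1a, Erc1, Rims1, Rph3a and Syt12, which act at priming, fusion, the active zone scaffold and the vesicle surface. They make 11.3% of the members, against 2.87% of all tested genes that fell and 2.15% that rose. Because the list was chosen with earlier results of these data known, such shares describe the list and are not independent evidence. At an unadjusted p under 0.05 there were 21 members lower and 1 higher, against 10.7% lower and 10.3% higher of all tested genes. The 1 higher member was Unc13c, which DESeq2 and limma voom called, with 3.67% of all genes called higher by DESeq2 and 2.55% by limma voom. DESeq2 called 8 members lower, against 4.70% of all genes, and limma voom 5, against 3.35% of all genes. The limma voom calls left out Rph3a and Syt12 and took in Unc13b. The median log2 fold change of the 53 members was -0.16, and that of all tested genes was 0.01. The sign was negative for 49 members (92.5%), against 47.8% of all tested genes. In 12 members the 4 SNI values all lay below the 4 sham values, as they did in 7.02% of all tested genes. In 0 members did they all lie above, as they did in 5.64% of all tested genes.

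**Figure D1:**
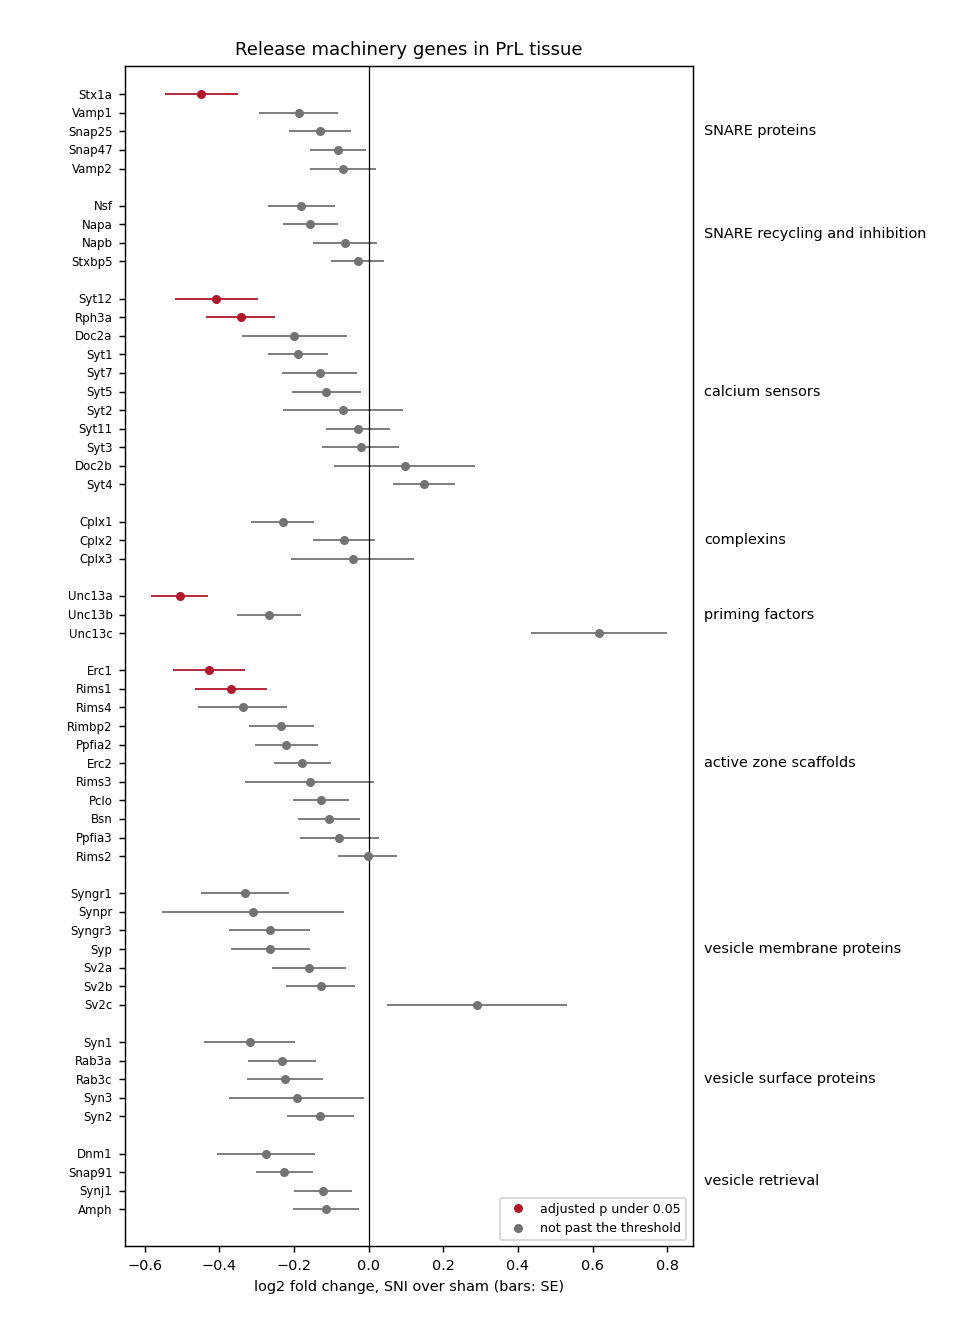
Log2 fold change of SNI over sham (horizontal axis, bars are SE) for the 53 release machinery genes (vertical axis), grouped by role, with the 6 members past an adjusted p of 0.05 in red. Points lie left of 0 for 49 of the 53 genes, and Unc13c stands furthest to the right at 0.62.

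The count of 6 depended on single libraries. It became 3 without SNI replicate 2 (2.30% of all genes lower) and 1 without SNI replicate 3 (1.42%). It became 1 without Sham replicate 3 (1.20%) and 3 without Sham replicate 4 (1.98%). It was 3 with scaling by library totals alone, with 1.98% of all genes lower and 3.21% higher. That scaling also turned the split over all genes to 276 lower and 446 higher, against 399 lower and 299 higher with TMM.

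Of the 3 priming factors 1 fell, against 2.87% of all tested genes. Unc13a encodes Munc13-1, the main priming factor of cortical excitatory synapses, and fell most among the members. Its level was 314, 263, 272 and 285 CPM in the SNI libraries and 396, 406, 401 and 408 CPM in the sham libraries. The sham values lay close together and every SNI value lay well below them. The log2 fold change was -0.51 ± 0.0771 (SE) with an edgeR adjusted p of 0.00256. The call held whichever single library was left out (highest edgeR adjusted p 0.0122). Unc13a lies on chromosome 8 of GRCm38 from 71624417 to 71671757 and overlaps Colgalt1 on the opposite strand; whether the counting used strand is not stated, so reads of the shared part are uncertain.

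Unc13b, which encodes Munc13-2, had 46.3, 44.7, 51.9 and 41.0 CPM in SNI and 53.4, 59.4, 54.0 and 54.4 CPM in sham. The groups did not overlap, but the gene did not pass (log2 fold change -0.27 ± 0.0857 SE, edgeR adjusted p = 0.0848). DESeq2 and limma voom both called Unc13b lower. Unc13c, which encodes Munc13-3, known mainly from cerebellar granule cells, had the largest positive value of the list. It had 18.9, 26.2, 25.6 and 27.4 CPM in SNI and 12.6, 12.2, 16.7 and 22.3 CPM in sham. The lowest SNI library lay inside the sham range, and the gene did not pass (log2 fold change 0.62 ± 0.182 SE, edgeR adjusted p = 0.0728). Per kilobase of annotated exon, the level of Unc13a was 27.5 CPM in SNI and 39.1 CPM in sham. Unc13c reached 2.79 CPM per kilobase in SNI and 1.81 in sham, and Unc13b 2.62 in SNI and 3.15 in sham.

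The 250 bases upstream of the RefSeq start are shown for 4 of the genes that fell, the 4 that have a single annotated start in the RefSeq table (GRCm38.p6). They are read on the gene's own strand, 5′ to 3′, with GC boxes (GGGCGG, or CCGCCC when read on the other strand) in capitals. GC boxes are the recognition letters of Sp-family factors. The windows are chr8:71671758-71672007 on the minus strand for Unc13a, chr5:135023232-135023481 on the plus strand for Stx1a, chr6:119848151-119848400 on the minus strand for Erc1 and chr1:22806159-22806408 on the minus strand for Rims1.
Unc13a: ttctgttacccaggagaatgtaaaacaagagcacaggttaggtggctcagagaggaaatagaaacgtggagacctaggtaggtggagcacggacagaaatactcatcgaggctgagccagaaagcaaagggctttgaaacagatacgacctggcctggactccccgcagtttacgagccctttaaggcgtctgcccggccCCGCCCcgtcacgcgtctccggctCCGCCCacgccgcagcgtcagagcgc
Stx1a: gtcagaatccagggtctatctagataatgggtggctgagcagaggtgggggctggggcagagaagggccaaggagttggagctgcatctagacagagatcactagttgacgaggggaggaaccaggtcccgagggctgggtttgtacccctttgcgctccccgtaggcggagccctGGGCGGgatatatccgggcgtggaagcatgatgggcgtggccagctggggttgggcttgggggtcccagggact
Erc1: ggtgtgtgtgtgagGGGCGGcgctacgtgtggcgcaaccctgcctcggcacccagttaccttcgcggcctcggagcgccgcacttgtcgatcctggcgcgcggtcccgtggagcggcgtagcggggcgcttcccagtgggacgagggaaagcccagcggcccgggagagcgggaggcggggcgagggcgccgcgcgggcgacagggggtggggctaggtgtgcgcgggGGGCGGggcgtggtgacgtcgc
Rims1: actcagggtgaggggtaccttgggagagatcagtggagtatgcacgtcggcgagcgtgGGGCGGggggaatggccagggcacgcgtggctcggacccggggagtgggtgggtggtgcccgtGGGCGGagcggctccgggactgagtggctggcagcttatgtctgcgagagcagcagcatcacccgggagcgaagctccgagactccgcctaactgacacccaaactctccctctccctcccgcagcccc

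These 4 windows had 58% G and C for Unc13a, 62% for Stx1a, 76% for Erc1 and 68% for Rims1. They hold 2 GC boxes in Unc13a, 1 in Stx1a, 2 in Erc1 and 2 in Rims1, none overlapping another. The share of G and C over all windows was not computed. Rph3a, which has more than 1 annotated start, had windows with 56%, 62% and 48.8% G and C and with 0, 1 and 0 GC boxes. Syt12 had no window. Of the 53 members, 41 matched the table with 52 windows, and 30 of these windows (57.7%) held a GC box on either strand, against 32.7% of all 32851 windows of that length. The letters TATAAA, searched on both strands, stood in 2 member windows (3.85%), both of Sv2b, against 12.4% of all windows. The cyclic AMP response letters TGACGTCA stood in 1 member window (1.92%), that of Syn1, against 508 of all 32851 windows.

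Among the 5 SNARE proteins, Stx1a (chromosome 5, 135023482 to 135051100) fell and the other 4 members did not pass. Stx1a encodes syntaxin-1A, the plasma membrane SNARE that Munc13 opens. It had 389, 271, 326 and 320.2 CPM in SNI and 417, 431, 469.7 and 464 CPM in sham. All SNI values lay below all sham values, with SNI replicate 1 nearest to them. The log2 fold change was -0.45 ± 0.0986 (SE), with an edgeR adjusted p of 0.0174. The call ended without SNI replicate 3 and without Sham replicate 3 (highest edgeR adjusted p 0.0625). Its partners Snap25 and Vamp2 had log2 fold changes of -0.13 and -0.07. Snap25 was the most abundant member per kilobase of exon, with 1148 CPM in SNI and 1257 CPM in sham. The exon length used for Snap25 was 2234 bases, while its longest annotated transcript has 4880, so this level depends on the annotation. Vamp1, a synaptobrevin of fast-spiking neurons and hindbrain, had -0.19, and Snap47 had -0.08.

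**Figure D2:**
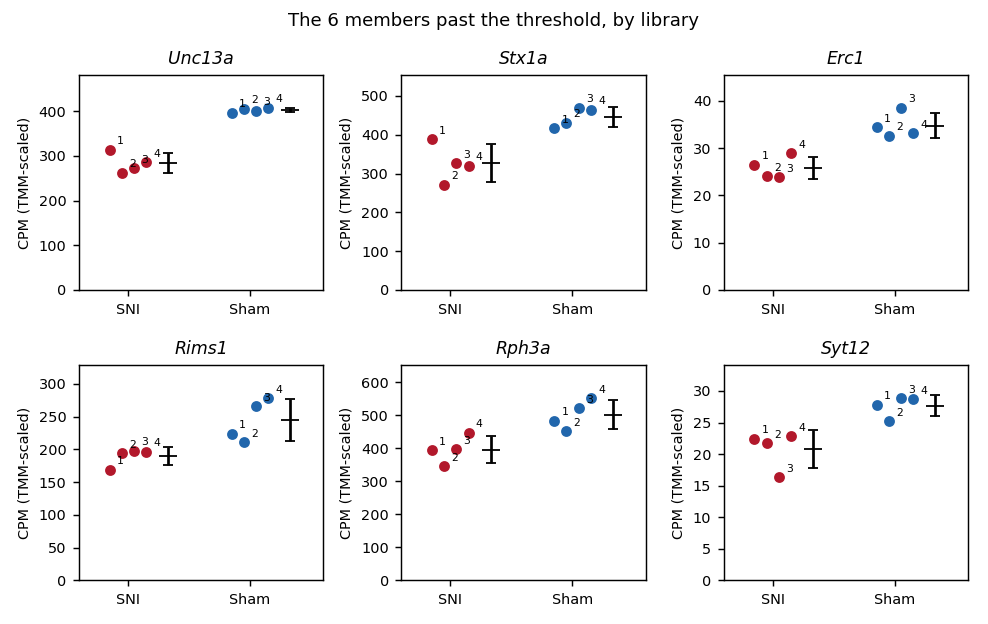
Level of the 6 members past the threshold in CPM after TMM scaling (vertical axes, from 0) in each SNI (red) and Sham (blue) library, with replicate numbers beside the points and the mean and SD in black. In all 6 genes the 4 SNI values lie below the 4 sham values; the sham values of Unc13a have an SD of 5.07 CPM around a mean of 403 CPM.

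Of the 4 genes that take SNARE complexes apart or block them, 0 passed by edgeR, and 1 had an unadjusted p under 0.05. It was Napa, alpha-SNAP, with 283, 249.5, 263 and 262 CPM in SNI and 308, 287, 292 and 292 CPM in sham. The groups did not overlap, with a log2 fold change of -0.16 ± 0.0735 (SE) and an edgeR adjusted p of 0.236. Nsf, the ATPase, had -0.18, Napb, beta-SNAP, -0.06, and Stxbp5, tomosyn, an inhibitor of SNARE assembly, -0.03. DESeq2 and limma voom also called none of the 4.

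Of the 11 active zone scaffolds 2 fell, Erc1 and Rims1, against 2.87% of all tested genes. All 11 had a negative log2 fold change (median -0.18), as did 92.5% of the 53 members and 47.8% of all tested genes. Erc1 (chromosome 6, 119570796 to 119848167) encodes ELKS1, a scaffold also used outside synapses. It had 26.5, 24.0, 23.8 and 28.9 CPM in SNI and 34.5, 32.6, 38.5 and 33.2 CPM in sham, with no overlap. The log2 fold change was -0.43 ± 0.0955 (SE) and the edgeR adjusted p 0.0191. The Erc1 call ended without SNI replicate 3 and without Sham replicate 3 (highest edgeR adjusted p 0.0815). Rims1 (chromosome 1, 22286251 to 22805994) encodes RIM1, which ties vesicles and calcium channels to the release site. It had 169, 194, 198 and 196 CPM in SNI and 224, 211, 266 and 278 CPM in sham. SNI replicate 1 was the lowest, and no SNI value reached the sham range. The log2 fold change was -0.37 ± 0.0965 (SE), with an edgeR adjusted p of 0.0376. The Rims1 call remained only without Sham replicate 1 or Sham replicate 2 (highest edgeR adjusted p over the 8 libraries left out in turn 0.138), and it ended with upper quartile scaling (0.0509) and library totals (0.0602).

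Rims2, which encodes RIM2, was level between the groups, at 103 ± 4.37 CPM in SNI and 103 ± 8.49 CPM in sham (SD, n = 4 libraries each). Rims4 and Rims3, short RIM forms, had -0.34 (edgeR adjusted p = 0.116) and -0.16. Rimbp2, which links RIM to calcium channels, had -0.23, and the liprins Ppfia2 and Ppfia3 had -0.22 and -0.08. Erc2, the second ELKS gene, had -0.18. The giant scaffold proteins Piccolo (Pclo) and Bassoon (Bsn) had -0.13 and -0.11. In Erc2 and Ppfia2 the 4 SNI values also all lay below the 4 sham values, without passing.

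Of the 11 genes of the calcium sensor group (synaptotagmins, Doc2 proteins and rabphilin) 2 fell, against 2.87% of all tested genes. Rph3a (chromosome 5, 120940499 to 121010092) encodes rabphilin, a C2-domain protein that binds Rab3 on vesicles. It had 394, 347, 397 and 448 CPM in SNI and 484, 452, 523 and 553 CPM in sham. The highest SNI value came close to the lowest sham value without overlap. The log2 fold change was -0.34 ± 0.0919 (SE), with an edgeR adjusted p of 0.0429. Syt12 (chromosome 19, 4445908 to 4477447) encodes a synaptotagmin whose C2 domains do not bind calcium. It had 22.4, 21.7, 16.3 and 22.8 CPM in SNI and 27.8, 25.2, 28.9 and 28.7 CPM in sham. SNI replicate 3 was the lowest and the groups did not overlap (log2 fold change -0.41 ± 0.112 SE, edgeR adjusted p = 0.0467). The call of Rph3a remained only without SNI replicate 4 or Sham replicate 2, and that of Syt12 only without SNI replicate 1 or 4 (highest edgeR adjusted p 0.125 for Rph3a and 0.140 for Syt12). Both calls also ended with limma voom (adjusted p 0.0722 for Rph3a and 0.0503 for Syt12) and with library totals (edgeR adjusted p 0.0606 and 0.0711). That of Syt12 ended with upper quartile scaling too (edgeR adjusted p 0.0564).

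Syt1, the main calcium sensor of fast release in forebrain, did not pass. It had 1709, 1596, 1429.8 and 1591 CPM in SNI and 1816, 1738, 1881 and 1778 CPM in sham, with a log2 fold change of -0.19 ± 0.0808 (SE) and an edgeR adjusted p of 0.189. Syt7, the sensor of slow and asynchronous release, had -0.13, Syt2, the fast sensor of hindbrain and some interneurons, -0.07, and Syt5 -0.11. Syt3 and Syt11 had -0.02 and -0.03. Doc2a had -0.20 and Doc2b 0.10. Syt4, known as an activity-induced gene, had 0.15 (edgeR adjusted p = 0.323).

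The complexins did not pass. Cplx1 had 476, 419, 465 and 498 CPM in SNI and 531, 493, 558 and 598 CPM in sham. SNI replicate 4 lay just above Sham replicate 2 (log2 fold change -0.23 ± 0.0844 SE, edgeR adjusted p = 0.129). Cplx2, the other major forebrain complexin, had -0.07 and Cplx3 -0.04.

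Of the 7 vesicle membrane proteins 0 passed by edgeR, and 3 had an unadjusted p under 0.05: Syngr1, Syp and Syngr3. DESeq2 and limma voom called none of the 7. Syngr1, synaptogyrin-1, had 706, 454, 553 and 675 CPM in SNI and 779, 705, 805 and 716 CPM in sham. SNI replicate 1 lay just inside the sham range and SNI replicate 2 far below it (log2 fold change -0.33 ± 0.118 SE, edgeR adjusted p = 0.120). Without SNI replicate 1 its log2 fold change was -0.42 and Syngr1, Syp and Dnm1 were called (3.23% of all genes lower). Syp, synaptophysin, had -0.26, Syngr3 -0.27, Sv2a -0.16 and Sv2b -0.13. Sv2c, a vesicle protein known from basal ganglia, had 17.4, 34.5, 20.4 and 36.3 CPM in SNI and 24.8, 23.4, 17.4 and 23.6 CPM in sham. Its 2 high libraries, SNI replicates 2 and 4, were those with the highest striatal markers, 929 and 923 CPM summed over the list; the part of striatal tissue in the Sv2c value was not tested. Synpr, synaptoporin, had 140.0, 153, 113 and 133 CPM in SNI and 132, 263, 136 and 138 CPM in sham, so its log2 fold change of -0.31 ± 0.243 (SE) rested on Sham replicate 2.

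The vesicle surface and retrieval genes did not pass. Of the 5 surface genes, Syn1, synapsin I, had the smallest p, with 714, 451, 576 and 650.4 CPM in SNI and 811, 752, 774 and 646 CPM in sham (log2 fold change -0.32 ± 0.122 SE, edgeR adjusted p = 0.148). SNI replicates 1 and 4 lay above Sham replicate 4. Syn2 and Syn3 had -0.13 and -0.19, and the vesicle GTPases Rab3a and Rab3c had -0.23 and -0.22. Of the 4 retrieval genes, Snap91, the clathrin adaptor AP180, had 432, 394, 378 and 422 CPM in SNI and 474, 498, 485 and 446 CPM in sham. Its groups did not overlap, with a log2 fold change of -0.23 ± 0.0768 (SE) and an edgeR adjusted p of 0.103, and DESeq2 called it (adjusted p 0.0252). Dnm1, dynamin 1, had -0.27, Synj1, synaptojanin 1, -0.12, and Amph, amphiphysin, -0.11.

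Related members were also set against each other within each library, as the log2 ratio of their counts, which no library scaling changes. Of 16 pairs, 3 had SNI ratios all below the sham ratios, and each of these had an exact two-sided permutation p of 0.0286, the smallest that 4 against 4 allows, and 0.152 after Benjamini-Hochberg adjustment over the 16 pairs. None of the 16 passed that adjustment. The log2 ratio of Rims1 over Rims2 was 0.74, 0.89, 1.03 and 0.87 in SNI and 1.15, 1.13, 1.20 and 1.49 in sham, a mean difference of -0.36. That of Erc1 over Erc2 was -2.53, -2.81, -2.58 and -2.49 in SNI and -2.34, -2.47, -2.24 and -2.38 in sham, a difference of -0.25. That of Cplx1 over Cplx2 was -1.22, -1.20, -1.12 and -1.21 in SNI and -1.10, -1.08, -1.03 and -0.89 in sham, a difference of -0.16. Unc13a over Unc13b differed by -0.24 with overlapping groups (exact two-sided permutation p = 0.0571, adjusted 0.229, n = 4 libraries each). The ratios of Bsn over Pclo, Rab3a over Rab3c and Sv2a over Sv2b differed by 0.02, -0.00411 and -0.04.

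**Figure D3:**
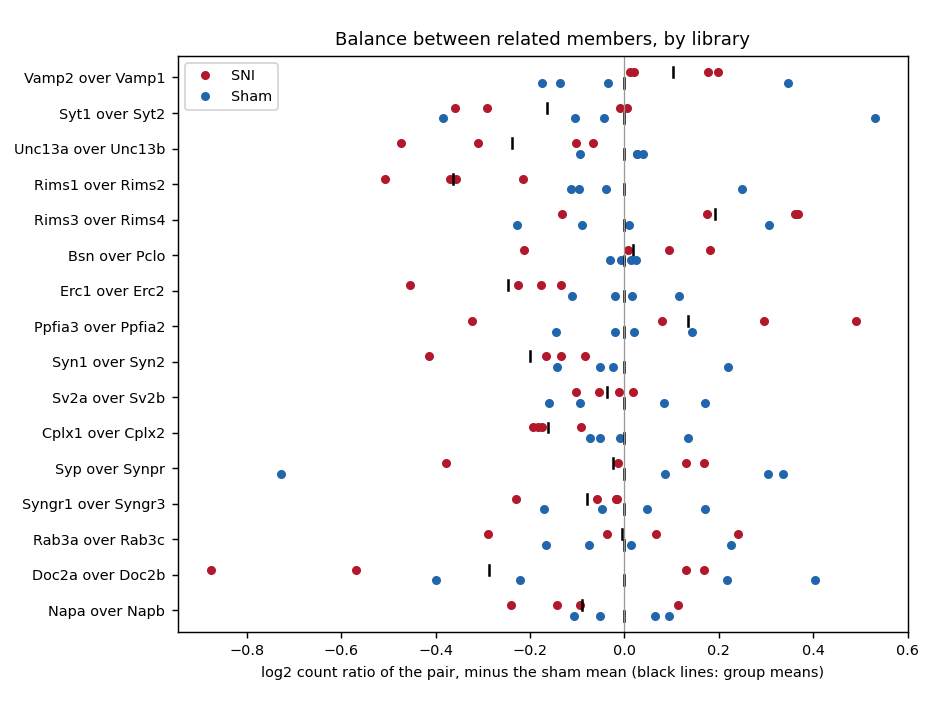
Log2 count ratio of 16 pairs of related members in each SNI (red) and Sham (blue) library, minus the pair's sham mean (horizontal axis), with black lines at group means. The SNI points lie wholly left of the sham points for Rims1 over Rims2, Erc1 over Erc2 and Cplx1 over Cplx2.

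The members did not vary evenly between SNI libraries. The mean over the 53 members of log2 CPM, centred per gene, was 0.00146, -0.19, -0.15 and 0.01 in SNI replicates 1 to 4 and 0.08, 0.04, 0.13 and 0.07 in Sham replicates 1 to 4. SNI replicates 2 and 3 were the low ones, while SNI replicates 1 and 4 lay just below the sham libraries. Of the 53 members, 26 had their lowest value in SNI replicate 2 and 15 in SNI replicate 3, against 1 in SNI replicate 1 and 2 in SNI replicate 4. The same shares over all tested genes were not computed, so this unevenness may not be particular to the members. Without SNI replicates 2 and 3, a choice made after seeing the data, the median log2 fold change of the members was -0.06 and 37 had a negative sign. Unc13a was then the 1 member called, with 0.909% of all genes called lower.

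**Figure D4:**
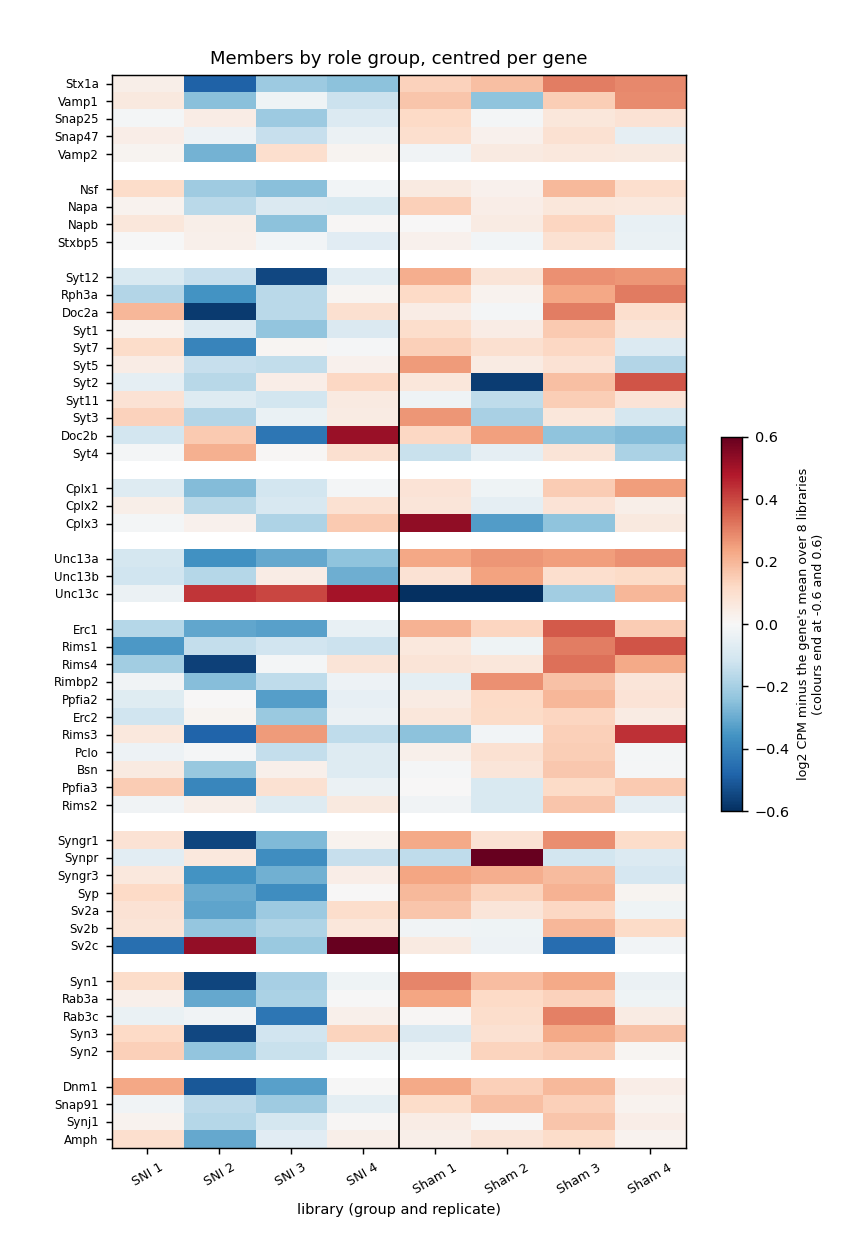
Log2 CPM of the 53 members (rows, by role group) in the 8 libraries (columns), minus each gene's mean, from blue (-0.6) to red (0.6). SNI replicates 2 and 3 hold most of the blue, and Unc13a, Erc1 and Rims1 are blue in all 4 SNI columns.

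General neuron and excitatory cortical markers had mean centred values wholly lower in SNI than in sham, as the members did, and no other marker list did. Of 12 GABAergic markers 0 passed. Oligodendrocyte markers summed to 4322 to 7627 CPM in SNI and 3087 to 6810 CPM in sham. Of 13 general neuron markers tested 2 fell, Rbfox3 (-0.32) and Nefm (-0.52), and 10 had a negative sign. Celf4 (0.13), Uchl1 (0.10) and Map2 (0.07) were positive. The mean centred value of this list lay between -0.18 and -0.01 in SNI and between 0.00739 and 0.13 in sham, without overlap. The summed level was 5956 to 6454 CPM in SNI and 6163 to 6796 CPM in sham. Of 14 excitatory cortical markers 5 fell, Nrn1, Lamp5, Mef2c, Cux2 and Itpka, and 11 had a negative sign, against 47.8% of all tested genes. The positive ones were Foxp2, which had the largest log2 fold change of the list in size (0.95, edgeR adjusted p = 0.0746), Fezf2 (0.23) and Neurod2 (0.01). Their mean centred value did not overlap between the groups either and was lowest in SNI replicates 2 and 3, at -0.21 in both. The 12 striatal markers all had a positive log2 fold change (median 1.00; Drd1 0.98, edgeR adjusted p = 0.150), with the largest summed levels in SNI replicates 2 and 4. Astrocyte markers summed to 3849 to 4989 CPM in SNI and 3933 to 4762 CPM in sham, and microglia markers to 473 to 756 CPM in SNI and 424 to 513 CPM in sham, both highest in SNI replicate 3. Of the 10 microglia markers 2 rose, Tmem119 (0.48) and P2ry12 (0.59), by edgeR (adjusted p = 0.0243 and 0.0310), 9 had a positive sign and the median log2 fold change was 0.36. For all these marker counts, 2.87% of all tested genes fell, 2.15% rose and 47.8% had a negative sign. Of 4 choroid plexus and ependyma markers tested, out of 7 listed, 2 rose, Clic6 (2.31) and Ttr (2.46). Both rest on very low levels. Clic6 had a mean of 1.34 CPM in SNI and 0.26 CPM in sham, and Ttr 1.4985 CPM in SNI and 0.26 CPM in sham. The 4 tested markers together summed to 10.7 to 15.5 CPM in SNI and 5.245 to 7.398 CPM in sham. The mean centred value of the 4, 0.57 to 0.86 in SNI and -0.90 to -0.25 in sham, did not overlap. The part of these cell types in the members' values was not tested. The markers with a row had at least 1 count in every library, the smallest count in the table; 1 general neuron, 1 excitatory cortical and 3 choroid plexus or ependyma markers of the lists had no row and were not analysed here. In bulk tissue, fewer cells of a type and less RNA per cell cannot be told apart.

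With the general neuron marker value as a covariate, 0 members passed by edgeR (6 lower and 0 higher at an unadjusted p under 0.05), and 0.0647% of all genes were called lower. The log2 fold changes were then -0.44 for Unc13a, -0.40 for Stx1a, -0.50 for Rims1, -0.33 for Rph3a, -0.25 for Erc1 and -0.15 for Syt12, whose value without the covariate was -0.41, and the median of the 53 was -0.03. The covariate's values do not overlap between the groups, so neuron marker level and injury cannot be told apart in this fit. With the striatal marker value as a covariate, 0 members passed by edgeR, and 0.180% of all genes were called lower. At an unadjusted p under 0.05, 7 members were lower and 0 higher in that fit. Unc13a then had -0.44 (edgeR adjusted p = 0.103) and the median of the members was -0.13. The share of all genes at an unadjusted p under 0.05 was not computed for either covariate fit, so these unadjusted member counts have no background.

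**Figure D5:**
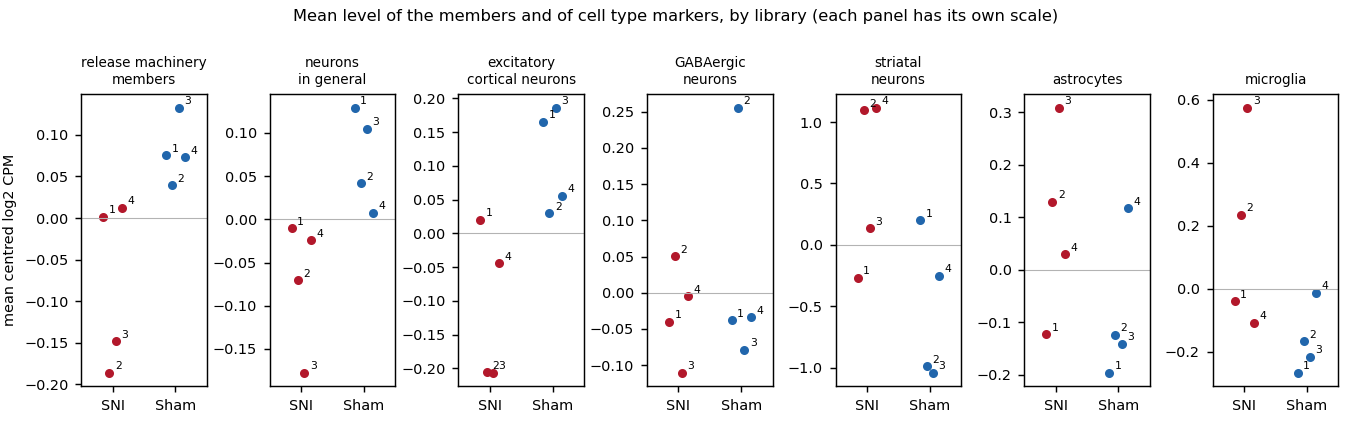
Mean centred log2 CPM (vertical axes, each panel on its own scale) of the 53 members and of 6 marker lists in each SNI (red) and Sham (blue) library, with replicate numbers. The members, the general neuron markers and the excitatory cortical markers show no overlap between groups, while the other 4 lists overlap.

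From 4 lists of further fusion, active zone, vesicle and endocytosis genes, 105 of 108 were tested. Of these 3 fell (2.86%, against 2.87% of all tested genes) and 6 rose (5.71%, against 2.15%), and their median log2 fold change was -0.04. At an unadjusted p under 0.05, 28 were lower and 12 higher, against 10.7% lower and 10.3% higher of all tested genes. The balance of these calls turned with the tool and the libraries. DESeq2 called 10 lower and 7 higher, against 4.70% and 3.67% of all genes. Without SNI replicate 1, edgeR called 9 lower and 6 higher, against 3.23% and 2.89% of all genes. It called 2 lower and 1 higher without SNI replicate 2, against 2.30% and 1.43% of all genes. Without Sham replicate 1 it called 2 and 2, against 1.97% and 1.22% of all genes. It called 0 lower without SNI replicate 3 or Sham replicate 2, 3 or 4, with 2, 2, 1 and 5 higher. Over all genes, 1.20% to 2.05% were lower and 0.642% to 1.82% higher in those last 4 fits. At an unadjusted p under 0.05, 17, 24, 14 and 24 of the further genes were lower there and 10, 13, 11 and 11 higher. The share of all genes at that p was not computed for those fits. Those that fell included Pacsin1 and Pip5k1c. Pacsin1, syndapin I, a dynamin partner, had -0.39, and Pip5k1c, the kinase that makes the lipid on which endocytic coats form, -0.36 (edgeR adjusted p = 0.0425 and 0.0498).

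The 6 that rose were Sncg, Vamp8, Snapin, Tprgl, Mctp1 and Sypl. Tprgl, the vesicle protein Mover, had 248, 222, 265 and 233 CPM in SNI and 190.3, 184, 193 and 208 CPM in sham (log2 fold change 0.32, edgeR adjusted p = 0.0316). Snapin, a SNAP-25 binding protein, had 57.9, 66.0, 64.6 and 57.7 CPM in SNI and 49.9, 48.0, 47.1 and 53.2 CPM in sham (log2 fold change 0.31, edgeR adjusted p = 0.0347). Vamp8, a SNARE of endosomes and secretory cells, had 0.82, Sncg, gamma-synuclein, 1.05, Mctp1, a C2-domain membrane protein, 0.48, and Sypl, a synaptophysin-like protein found in many cell types, 0.39. Sncg and Vamp8 rest on low levels, at 4.03 and 10.3 CPM in SNI and 1.95 and 5.82 CPM in sham. Git1, an active zone protein picked for mention after its values were seen, had a log2 fold change of -0.28 and did not pass (edgeR adjusted p = 0.0789).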

How the data were processed

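Poly(A) RNA of PrL tissue was sequenced from dUTP-marked libraries, per the labels' protocols. The authors deposited whole-number counts of reads per gene. The submitters' processing notes name fastp, HISAT2, StringTie and GRCm38; versions, annotation, strand setting and the step from assembly to counts were not stated. Every gene in the table has at least 1 count in each library.

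The 53 members and all lists were chosen with earlier results of these data known. edgeR 4.0.16 (R 4.3.3) used filterByExpr, TMM scaling and robust quasi-likelihood F-tests (two-sided, group as the only term) over 13911 genes, with Benjamini-Hochberg adjustment and a threshold of 0.05. An SE is the log2 fold change divided by the square root of F. Alternatives used DESeq2 1.42.0 and limma 3.58.1. Centred values used log2 CPM with a prior count of 2, and ratios a pseudocount of 1. The method was tested on simulated counts drawn independently for each gene and library. Shifts shared by many genes of a library were not simulated, so that test does not cover them. Exon length comes from the basic set of GENCODE M21, GC content and gene spans from its full set, and promoters from RefSeq. GC content was known for 99.3% of tested genes. Of the members, 15 overlap another coding gene, and their values are uncertain in part. Same-group libraries differed by more than sampling noise (chi-square per degree of freedom 7.54 to 28.8). Values per library were given for members that passed and for the smallest p of each role group; some other members were added after their values were seen. Some genes of the further lists are not reported here by name.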

Additional observations from a re-analysis of the deposited data

Results flagged for a closer look

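Of 138 sets of 4 values screened (106 of member levels, 32 of ratios), 6 held 1 library set apart from the other 3, and chance alone sets apart about 1 set in 20. Synpr had 263 CPM in Sham replicate 2, against 132 to 138 CPM in the other sham libraries; the GABAergic marker value was also highest in that library (0.26, against -0.11 to 0.05 in the other 7), and its part in the Synpr value was not tested. Rims1 had 169 CPM in SNI replicate 1, against 194 to 198 CPM in the other SNI libraries. Vamp2 had 1032 CPM in Sham replicate 1, against 1088 to 1094 CPM. Unc13b had 59.4 CPM in Sham replicate 2, against 53.4 to 54.4 CPM, and the log2 ratio of Unc13a over Unc13b was accordingly 2.77 there, against 2.89 to 2.90. Syngr3 had 187 CPM in Sham replicate 4, against 228 to 236 CPM.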

How the results depend on the processing

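Each of the 6 called members kept its sign under all 24 alternatives, but in part this was fixed in advance. The settings at an FDR of 0.1 and 0.01 are the main fit at another threshold. Leaving out libraries could hardly turn the sign of genes whose groups do not overlap. Unc13a lost its call only with either marker covariate. Against 6 members lower, 0 higher, 399 genes lower, 299 higher, and 3 lower and 6 higher among the other release genes, the counts moved as follows, and the cause was not tested. Members lower numbered 3 with library totals, 0 with the neuron or the striatal covariate, 1 at an FDR of 0.01 and 1 without SNI replicates 2 and 3 (chosen after seeing the data). Members higher numbered 1 (Unc13c) with DESeq2, limma voom, an FDR of 0.1, the replicate block and the block with GC offsets. All genes lower and higher numbered 654 and 511 with DESeq2, 9 and 4 with the neuron covariate, 25 and 10 with the striatal one, 688 and 591 at an FDR of 0.1, 120 and 35 at 0.01, and 128 and 50 without SNI replicates 2 and 3. Other release genes lower numbered 1 with library totals, 10 with DESeq2, 1 with the block, 7 with GC offsets, 11 at an FDR of 0.1 and 0 with either covariate, at 0.01 and without SNI replicates 2 and 3; those higher numbered 0 under these last 4. Unadjusted p-values under 0.05 remained for 3 and 3 of them with the neuron covariate, 6 and 5 with the striatal one, and 13 and 9 without those replicates. The share of all genes at that p was not computed for these fits. Leaving out 1 library gave 1 to 7 members lower, 0 to 1 higher, 168 to 453 and 90 to 405 genes, 0 to 9 and 1 to 6 other release genes, and 3 to 5 pairs without overlap (5 without Sham replicate 2). Removing a library cannot make separate groups overlap, so the pair count could not fall below 3 and its range does not check it. Same-numbered libraries did not deviate together over all genes (correlations -0.15 to -0.01). The labels do not say whether the numbers pair libraries, and these correlations cannot exclude it. The replicate block gave 5 members lower (2.20% of all genes), with Syt12 lost (edgeR adjusted p 0.0621), and 4 pairs without overlap. Syn3, the lowest member, rests on 5.61 CPM in SNI and 6.38 CPM in sham.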

Other observations

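The 26 members with their lowest value in SNI replicate 2 and the 15 with their lowest value in SNI replicate 3 differed in base composition. The median GC content of their longest transcripts was 55.0% in the first set and 45.4% in the second, against 51.6% over the 53 members and 49.9% over all tested genes. Syngr1, Syn1 and Dnm1 were among the first set, and Snap25, Rab3c and Syt1 among the second. Correcting for GC content left 6 members lower, 5 of them among the 6 named above, with Unc13b in place of Syt12, while the share of all tested genes called lower was 4.13%, against 2.87% without the correction. Across the 53 members the Spearman correlation of the log2 fold change with GC content was -0.20, and with exon length 0.08, against -0.15 and -0.08 over 13817 genes. Genes are not independent replicates, and these values are descriptions.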
